A study of Mus musculus with 4 samples.

Results

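The Ikaros zinc-finger family is a set of 5 transcription factor genes, Ikzf1 (Ikaros), Ikzf2 (Helios), Ikzf3 (Aiolos), Ikzf4 (Eos) and Ikzf5 (Pegasus). They were selected by gene symbol from 50600 annotated genes, and all 5 had fragments in all 4 libraries. The libraries were made from RNA of primary T cells of C57BL/6NJ mice, an inbred laboratory strain, and the labels number them as replicates 1 to 4 of 1 group. The labels give no culture condition, but they link a protocol for differentiating CD4+ T cells, and the header of each count file names an alignment marked Th0, activated and 24 h. Th0 is the usual name for CD4+ T cells stimulated without cytokines that direct them to an effector type. Age is given as unknown, sex was not collected, the donor entry is the same for all 4, and no label says that the libraries came from separate animals. The labels give no second condition, so the data answer which family members these cells transcribe, at what level relative to one another, and how closely the libraries agree.

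Family members bind DNA through a cluster of C2H2 zinc fingers, small folds that each hold a zinc ion between a pair of cysteines and a pair of histidines, in the first part of the protein. Fingers near the other end pair the proteins with themselves and with one another, so the mix of members in a cell can set which dimers form. Ikaros is needed for lymphocyte development and, in mature T cells, raises the threshold for activation. Helios and Eos are best known in regulatory T cells, Aiolos in B cells and in Th17 cells, and Pegasus is the most distant relative, with a DNA preference of its own.

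The DNA-binding fingers show how the members are related, and the second finger, one of the main contacts with DNA, is printed below for each. The sequences are coding bases of the longest open reading frame of each gene, read from GENCODE vM21 transcripts on mm10, and the capitals mark the codons of the cysteines and histidines that hold the zinc.
Ikzf1: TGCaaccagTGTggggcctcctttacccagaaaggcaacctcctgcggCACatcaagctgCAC
Ikzf2: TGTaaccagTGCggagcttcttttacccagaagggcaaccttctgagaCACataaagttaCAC
Ikzf3: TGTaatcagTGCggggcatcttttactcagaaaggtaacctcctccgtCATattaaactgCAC
Ikzf4: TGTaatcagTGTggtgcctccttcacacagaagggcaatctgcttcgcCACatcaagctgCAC
Ikzf5: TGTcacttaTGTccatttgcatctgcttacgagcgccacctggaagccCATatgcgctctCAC
Each stretch is 63 bases, or 21 codons. Translated, the finger is the same in Ikzf1, Ikzf2, Ikzf3 and Ikzf4 at 21 of 21 positions, although only 48 to 53 of the 63 bases are shared between any pair of these genes. Ikzf5 shares 5 of 21 residues and 26 to 30 bases with each of them. A search for the finger pattern found 4 fingers in the first part of Ikzf1, Ikzf2, Ikzf3 and Ikzf4 and 3 in Ikzf5, and 1 in the later part of every member. The pattern fixed the spacing of the cysteines and histidines. A finger with another spacing would be missed, so these counts are minima and do not give the full number of fingers.

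Exact matches between members were short. The longest stretch of identical bases between transcripts of any 2 members was 32 bases, between Ikzf2 and Ikzf4. Of the stretches of 50 bases in each gene's transcripts, none of Ikzf1, Ikzf2 or Ikzf3 occurred in transcripts of any other annotated gene. For Ikzf4 the share was 0.530%, or 33 of 6229. For Ikzf5 it was 12.9%, or 750 of 5818, all shared with Gm10356, a processed pseudogene on chromosome 3 that was itself assigned 2, 21, 1 and 7 fragments in replicates 1 to 4. Counting left out fragments aligned to several places, so the Ikzf5 count is uncertain to that extent.

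The cells carried the transcripts that define T cells. All 12 T-cell markers, from Cd3e to Zap70, were above 10 TPM in every library (TPM corrects a count for exon length and library total), and their summed level ran from 7126 to 7586 TPM. Summed levels were 3.78 to 7.45 TPM for 8 B-cell markers, 5.57 to 8.37 TPM for 7 myeloid markers, 0.404 to 0.777 TPM for 4 dendritic-cell markers and 0.354 to 1.18 TPM for 4 natural killer markers, with Csf1r, S100a8, S100a9, Itgax, Siglech and Klrb1c at 0 fragments (a count of 0 allows up to 3 fragments a library). Most of the myeloid sum was Cd68, which averaged 6.44 ± 1.37 TPM (SD, n = 4), and each other myeloid marker averaged 0.312 TPM or less. Of 3 plasma-cell markers, summed at 69.6 to 73.4 TPM, Xbp1, which also serves secretion and stress responses in other cells, averaged 63.0 ± 2.32 TPM, Sdc1 9.05 ± 0.688 TPM and Jchain 0.0943 ± 0.0934 TPM (SD, n = 4). The 2 CD8 markers differed: Cd8b1 averaged 46.7 ± 3.55 TPM and Cd8a 0.839 ± 0.0254 TPM (SD, n = 4). Gene-assigned fragments numbered 60102919, 273136467, 48608896 and 47558517 in replicates 1 to 4, so replicate 2 was sequenced most deeply. The libraries also fall into pairs by sex-linked genes. Xist, a non-coding RNA that shuts down 1 X chromosome in female cells, stood at 163, 150.5, 0.715 and 0.696 TPM in replicates 1 to 4, and the Y-linked gene Ddx3y at 0.0434, 0.0219, 38.8 and 39.3 TPM. Replicates 1 and 2 thus carried the transcripts of female cells and replicates 3 and 4 those of male cells. The 4 libraries therefore cannot all come from 1 animal, although the donor entry is the same. In bulk RNA, fewer cells of a type and less RNA per cell cannot be told apart.

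Ikaros was by far the most abundant member. Ikzf1 (ENSMUSG00000018654.17, mm10 chr11:11685003-11772926, plus strand, 10 exon blocks with 5777 bases of exon) was assigned 39700, 185635, 33580 and 31669 fragments in replicates 1 to 4. Per length these were 387, 406, 411 and 391 TPM. The libraries lie close together, and the mean was 399 ± 11.6 TPM (SD, n = 4), higher than that of 96.7% of genes that averaged 1 TPM or more. The coefficient of variation was 2.91%, against 0.479% from counting error alone.

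Pegasus, Aiolos and Eos formed a middle tier at a few percent of the Ikaros level. Ikzf5 (ENSMUSG00000040167.16, chr7:131388652-131410521, minus strand, 6 exon blocks, 5721 bases) stood at 18.4, 18.0, 17.4 and 18.6 TPM in replicates 1 to 4, from 1868, 8171, 1409 and 1496 fragments, a mean of 18.1 ± 0.528 TPM. Ikzf3 (ENSMUSG00000018168.8, chr11:98464902-98546031, minus strand, 10 exon blocks, 8754 bases) stood at 10.7, 10.1, 10.3 and 10.8 TPM, from 1666, 7027, 1270 and 1324 fragments, a mean of 10.5 ± 0.323 TPM. Both genes were nearly level across libraries. Ikzf4 (ENSMUSG00000002578.16, chr10:128632415-128645993, minus strand, 8 exon blocks, 3580 bases) stood at 9.53, 9.08, 8.68 and 7.99 TPM, from 605, 2574, 439 and 401 fragments, a mean of 8.82 ± 0.654 TPM. Replicate 4 was the lowest for Ikzf4 and replicate 1 the highest.

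Helios was the least abundant member and the one that differed most between libraries. Ikzf2 (ENSMUSG00000025997.13, chr1:69531214-69687245, minus strand, 10 exon blocks, 11613 bases) was assigned 293, 1907, 200 and 150 fragments in replicates 1 to 4. These correspond to 1.42, 2.07, 1.22 and 0.921 TPM, a mean of 1.41 ± 0.489 TPM (SD, n = 4). All 4 counts were far above the 3 fragments taken as the floor of detection, so the gene was detected in every library, but its level was near the bottom of the genes that averaged 1 TPM or more, above only 4.90% of them.

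**Figure D1:**
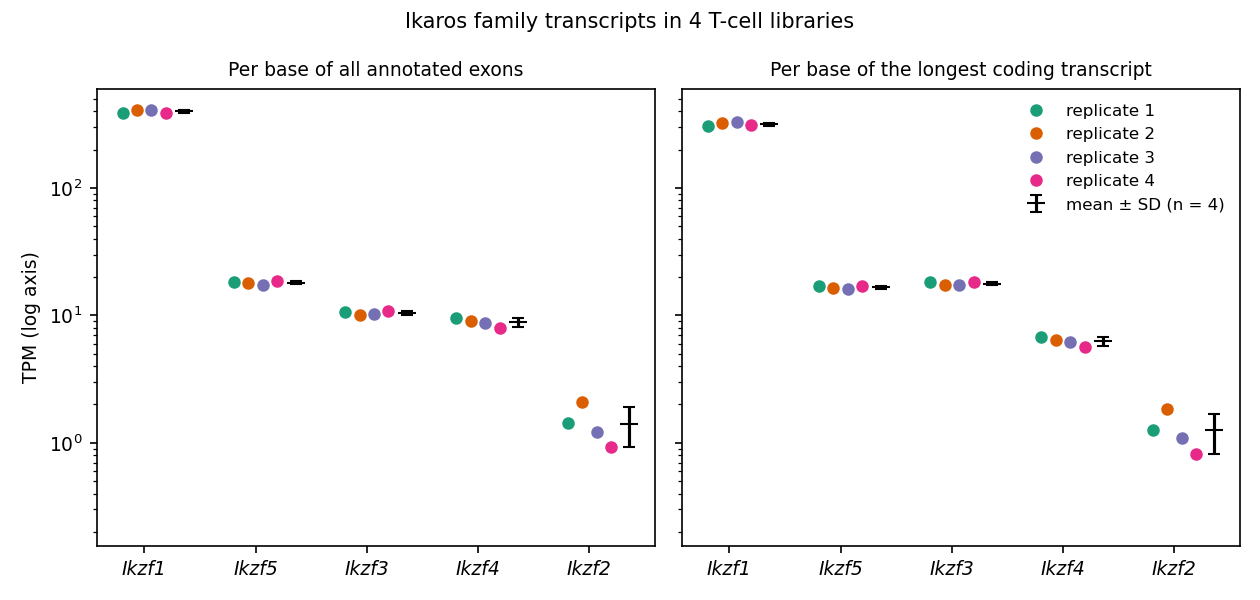
TPM of each Ikaros family member in each of 4 T-cell libraries (points, log axis) with mean ± SD (black, n = 4), per base of all annotated exons on the left and per base of the longest coding transcript on the right. Ikzf1 averages 399 TPM and Ikzf2 1.41 TPM on the left, and Ikzf3, below Ikzf5 on the left at 10.5 TPM, is above it on the right at 17.8 TPM.

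The order from high to low was Ikzf1, Ikzf5, Ikzf3, Ikzf4 and Ikzf2, and in all 10 pairs the direction was the same in 4 of 4 libraries. Ikzf1 exceeded Ikzf5 by 4.39 ± 0.08 in log2(TPM + 1), a ratio of 22.0 ± 1.26 (SD, n = 4). Ikzf5 exceeded Ikzf3 by 0.74 ± 0.03 on that scale, a ratio of 1.73 ± 0.0350. Ikzf3 exceeded Ikzf4 by 0.23 ± 0.11, a ratio of 1.19 ± 0.108. This is the closest pair of neighbours, and the lowest Ikzf3 library was only 0.617 TPM above the highest Ikzf4 library. Ikzf4 exceeded Ikzf2 by 2.05 ± 0.23, a ratio of 6.72 ± 1.78, and Ikzf1 exceeded Ikzf2 by 7.40 ± 0.27, a ratio of 307 ± 97.1. A two-sided exact sign-flip permutation test within libraries gave p = 0.125 for each of the 10 pairs, also after Benjamini-Hochberg adjustment, which is the smallest p that 4 libraries allow.

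The middle of that order depended on the length by which counts were divided. The files give the bases of all annotated exons. Of these, 17.4% are coding for Ikzf3, against 22.0% for Ikzf5, 57.6% for Ikzf4, 27.8% for Ikzf1 and 13.8% for Ikzf2. Counts were divided instead by the bases of the longest protein-coding transcript within the counted exons, a choice made after seeing the data. Ikzf3 then averaged 17.8 ± 0.537 TPM, Ikzf5 16.6 ± 0.462 TPM and Ikzf4 6.27 ± 0.465 TPM (SD, n = 4). The length was exchanged in protein-coding genes throughout, so the total behind TPM changed as well. Ikzf4 fell from 8.82 TPM although its length went only from 3580 to 3578 bases, so levels on the 2 scales are not directly comparable. On that scale the Ikzf5 minus Ikzf3 difference was -0.094 ± 0.027 in log2(TPM + 1), with Ikzf3 the higher in 4 of 4 libraries, while Ikzf3 exceeded Ikzf4 by 1.37 ± 0.11. The counts still held fragments from all annotated exons, so division by fewer bases can overstate a level. For Ikzf3 the divisor kept 3658 of 8754 bases, the smallest part in the family, so its turned order over Ikzf5 may come in part from this. Ikzf1, at 317 ± 9.55 TPM, remained the highest and Ikzf2, at 1.25 ± 0.434 TPM, the lowest. Of the longest Ikzf4 coding transcript, 5150 bases, only 69.5% lies in the exons that were counted, which adds to the uncertainty of the Ikzf4 level.

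Most family transcripts were Ikaros transcripts. Summed over the 5 genes the family reached 438 ± 11.0 TPM, and Ikzf1 made up 91.1 ± 0.412% of this sum (SD, n = 4). Ikzf5 contributed 4.15 ± 0.218%, Ikzf3 2.40 ± 0.132%, Ikzf4 2.02 ± 0.160% and Ikzf2 0.321 ± 0.108%. With the coding-transcript lengths the Ikzf1 share was 88.3%, the Ikzf3 share 4.97% and the Ikzf5 share 4.64%. The 4 other members together came to 38.8 ± 1.10 TPM.

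Variation between the libraries was tested across all genes with edgeR, asking whether the 4 counts of a gene scatter more than genes of similar abundance do. None of the 5 members passed an adjusted p of 0.05, and 1, Ikzf2, had an unadjusted p below 0.05. Of all 12712 genes tested, 46 passed the adjusted threshold, or 0.362%, and 704 were below 0.05 unadjusted, or 5.54%. With 5 genes, a count of 0 or 1 lies near that background.

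Ikzf1, Ikzf3, Ikzf4 and Ikzf5 scattered less than most genes. Their residual deviances, which measure misfit to 1 common level, were 0.226, 0.748, 1.10 and 0.632, against a median of 1.98 over all genes tested, and each had an adjusted p of 1 in edgeR. Their coefficients of variation were 2.91% for Ikzf1, 3.08% for Ikzf3, 7.42% for Ikzf4 and 2.91% for Ikzf5. Counting error alone would give 0.479% for Ikzf1, 2.39% for Ikzf3, 4.13% for Ikzf4 and 2.26% for Ikzf5. Each observed value was larger than this, by little for Ikzf3 and Ikzf5. Whether the excess goes beyond what counting error gives in 4 libraries was not tested.

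Ikzf2 stood out from the rest of the family, though not past the threshold. Its coefficient of variation was 34.7%, against 6.25% from counting error, and its highest library was 2.25 times its lowest. The exact 95% Poisson intervals, which cover counting error only, were 1.26 to 1.59 TPM in replicate 1, 1.98 to 2.17 in replicate 2, 1.06 to 1.40 in replicate 3 and 0.779 to 1.08 in replicate 4. The interval of replicate 2 lies above the other three, and that of replicate 4 below replicates 1 and 2. The residual deviance was 13.8, which 140 genes (1.10%) exceeded, with an unadjusted p of 0.0032 and an adjusted p of 0.292 in edgeR.

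The call for Ikzf2 turned on how much scatter is allowed for genes of low count, and the size of its p on replicates 2 and 4. With 1 dispersion for all genes in place of one that follows abundance, the edgeR adjusted p of Ikzf2 was 0.00063, and 862 of all genes tested passed, or 6.78%. The edgeR adjusted p was 0.9998 without replicate 2, 0.867 without replicate 4, 0.332 without replicate 3 and 0.0814 without replicate 1, so no library left out made it pass. Summed B-cell markers were 5.01, 7.45, 7.10 and 3.78 TPM in replicates 1 to 4, highest in replicate 2 and lowest in replicate 4 as Ikzf2 was, with Ebf1 at no more than 0.0870 TPM. Of the 8 B-cell markers, 5 were below 1 TPM in every library. Ikzf2 was also higher in both Xist-rich libraries, replicates 1 and 2, than in replicates 3 and 4, as was Ikzf4, but it spanned 1.42 to 2.07 TPM within the first pair and 0.921 to 1.22 TPM within the other. The part of the B-cell transcripts and of the sex-linked split in the Ikzf2 result was not tested.

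**Figure D2:**
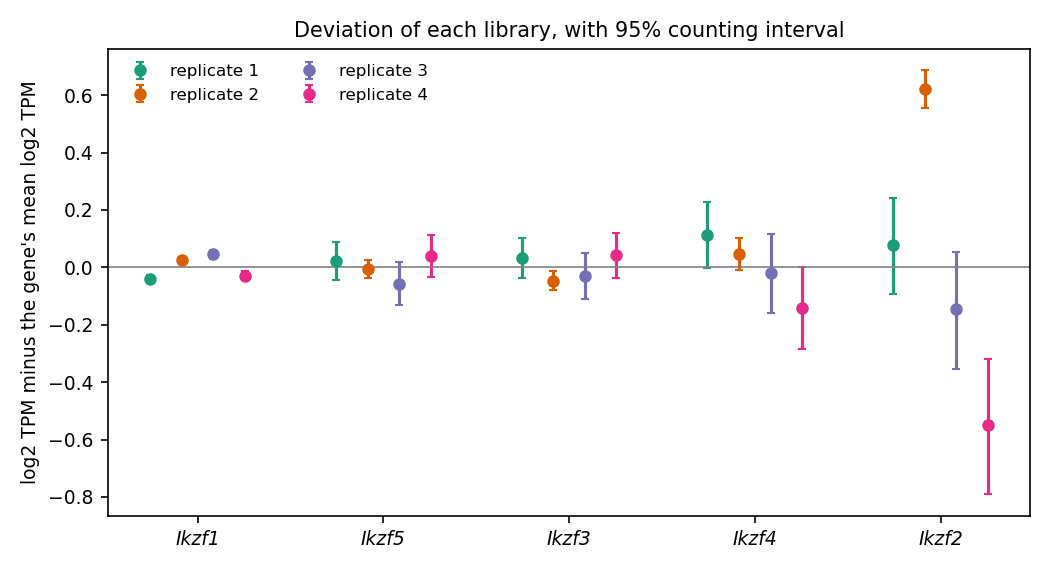
Deviation of each library from the gene's mean log2 TPM over 4 libraries, with the exact 95% Poisson interval of the count (bars), for the 5 Ikaros family members in order of level. Replicate 2 lies 0.62 above and replicate 4 lies 0.55 below the mean for Ikzf2 (-0.55 on the axis). Replicate 3 of Ikzf2 lies at -0.147. Among the other members the largest departure is that of Ikzf4 in replicate 4, at -0.140.

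**Figure D3:**
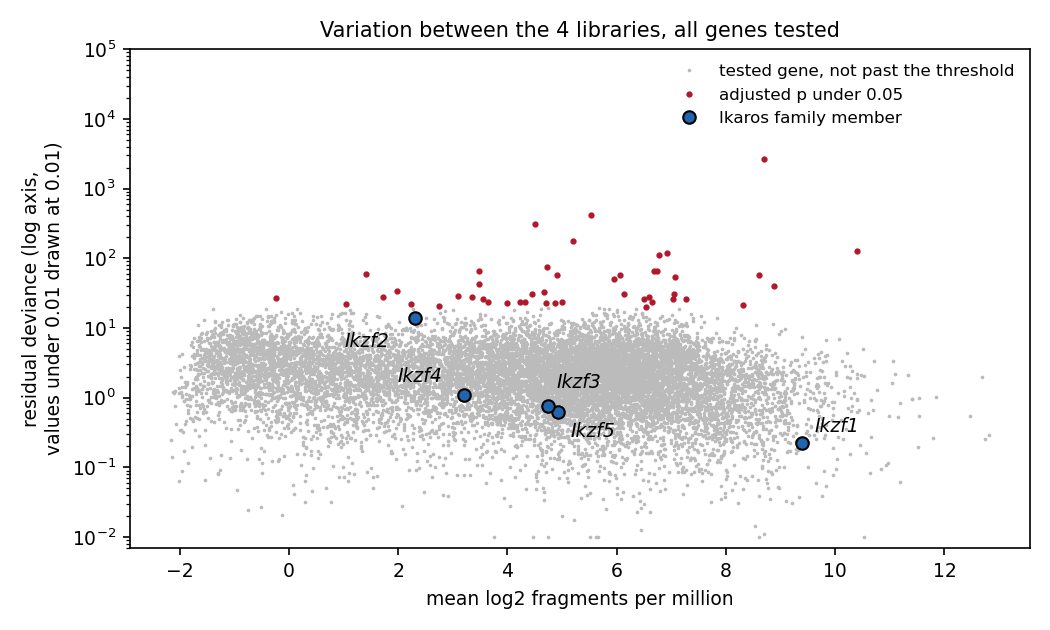
Residual deviance of each of 12712 genes from 1 common level over 4 libraries (log axis, edgeR with trended dispersion) against mean log2 abundance (fragments scaled to library size). The 46 genes with an adjusted p under 0.05 are red and the 5 Ikaros family members blue: Ikzf2, at 13.8, lies below the red points near it, and the other members lie between 0.226 and 1.10.

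The Helios and Eos genes are often read together with the regulatory T-cell programme, so its 8 genes are given in full. Surface molecules that activated T cells also carry were abundant: Tnfrsf18 (GITR) stood at 364, 397, 435 and 408 TPM in replicates 1 to 4, a mean of 401 ± 29.3 TPM (SD, n = 4). Il2ra (the IL-2 receptor alpha chain, CD25) stood at 307, 302, 289 and 284 TPM and Ctla4 (an inhibitory receptor) at 252, 254, 210.0 and 222 TPM. Tigit, another inhibitory receptor, stood at 60.0, 73.3, 57.5 and 54.5 TPM in replicates 1 to 4. The genes tied more closely to the regulatory lineage were far lower. Foxp3, the transcription factor that defines it, stood at 5.81, 4.61, 4.17 and 4.49 TPM in replicates 1 to 4, and Nrp1, a surface receptor of thymus-derived regulatory cells, at 5.58, 6.82, 5.87 and 5.70 TPM. Lrrc32 (GARP), which holds latent TGF-beta on the surface, stood at 3.47, 4.44, 3.64 and 3.89 TPM, and Itgae, the CD103 integrin chain, at 0.160, 0.243, 0.216 and 0.420 TPM. Replicate 2, the highest for Ikzf2, was also the highest for Ctla4, Tigit, Nrp1 and Lrrc32. Replicate 1, the highest for Ikzf4, was also the highest for Foxp3 and Il2ra, while Tnfrsf18 was highest in replicate 3 and Itgae in replicate 4. None of the 8 genes passed the variation threshold in edgeR, and none had an unadjusted p below 0.05, against 0.362% and 5.54% of all genes tested. A count of 0 among 8 lies near both shares. With 4 libraries no correlation was computed.

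Among 67 transcription regulators of T cells, Ikzf1 ranked 7, behind Irf4, Myc, Tcf7, Junb, Id3 and Nr4a1. The other members lay in the lower ranks, Ikzf5 at 51, Ikzf3 at 55, Ikzf4 at 57 and Ikzf2 at 63. With the coding-transcript lengths Ikzf3 ranked above Ikzf5, at 51 and 53, with Ikzf1 at 7, Ikzf4 at 59 and Ikzf2 at 63. Over the 62 regulators outside the family the median level was 54.3 TPM, and 58 reached 1 TPM in all 4 libraries. Of all 12712 genes tested, 11298 did so. Among 377 genes with zinc-finger symbols (Zfp, Zbtb, Zkscan, Zscan, Klf, Egr, Gfi1 and Ikzf) that averaged 1 TPM or more, Ikzf1 ranked 1, Ikzf5 134, Ikzf3 206, Ikzf4 229 and Ikzf2 366. The same ranking by coding-transcript length, over 371 genes, put Ikzf1 at 1, Ikzf3 at 130, Ikzf5 at 138, Ikzf4 at 247 and Ikzf2 at 367.

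For each member the regulators with the most similar level over the 4 libraries were taken, by the largest absolute difference in log2(TPM + 1) in any library. Ikzf1 was nearest to Nr4a1, an orphan nuclear receptor induced by the T-cell receptor, with a largest difference of 0.15 and a mean of 421 ± 27.7 TPM for Nr4a1, and then to Id3, an inhibitor of E proteins, at 0.45. Ikzf5 was nearest to Tox, an HMG-box factor, at 0.11, and to Zeb1, a zinc-finger homeobox repressor, at 0.14. Ikzf3 was nearest to Fosl2, an AP-1 subunit, at 0.09, and Ikzf4 likewise, at 0.30, each with Nr4a2 as the next, at 0.53 and 0.39. Ikzf2 was nearest to Rora, a nuclear receptor, at 0.43, and to Tbx21, the Th1 regulator T-bet, at 0.76. These genes were matched on level only.

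**Figure D4:**
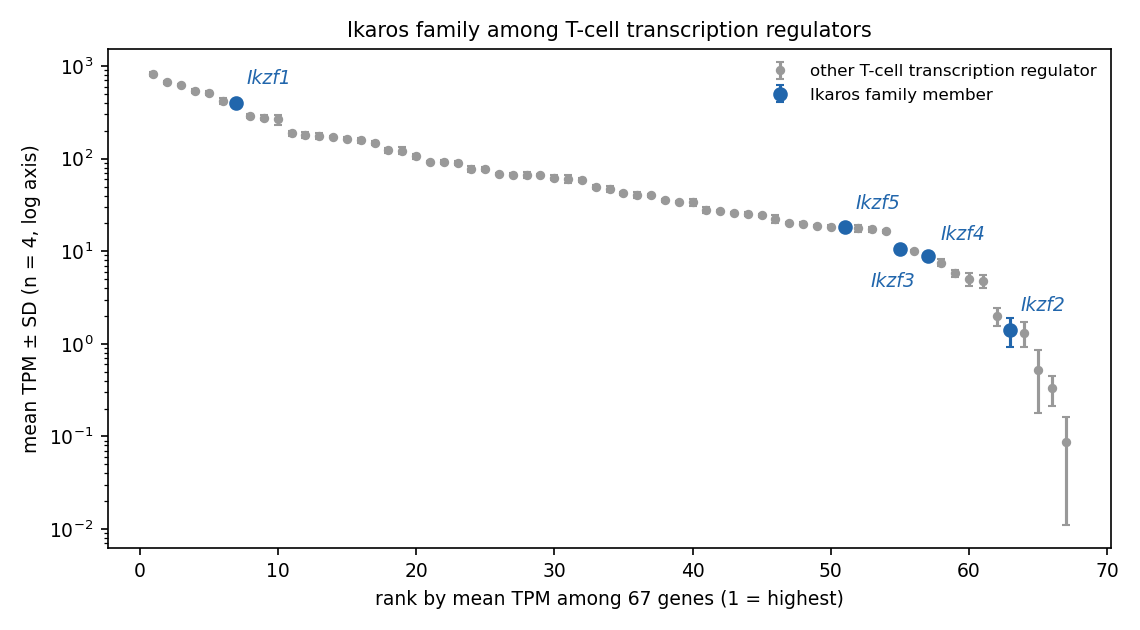
Mean TPM ± SD (n = 4, log axis) of 67 transcription regulators of T cells against rank, with the 5 Ikaros family members in blue. Ikzf1 ranks 7 at 399 TPM, and the other 4 members rank from 51 to 63, between 18.1 and 1.41 TPM.

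Ikaros acts through chromatin complexes, above all the NuRD remodelling and deacetylase complex, and the cells transcribed these broadly. All 13 NuRD genes were above 10 TPM in every library, with a median of 157 TPM, against 23.0 TPM over all genes tested. Of all 12712 genes tested, 8109 reached 10 TPM in every library, so reaching it is not particular to these complexes. Rbbp7, a histone-binding subunit, averaged 581 ± 25.8 TPM, Chd4, the main ATPase, 426 ± 17.7 TPM, and Mta2, a scaffold subunit, 404 ± 9.22 TPM (SD, n = 4). Mta3 was the lowest, at 20.9 ± 0.389 TPM. Chd4 and Mta2 thus lay near the Ikzf1 level, and Mta3 near that of Ikzf5.

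Of 7 genes for the Sin3, CtBP and NCoR co-repressors, 6 were above 10 TPM in every library, with a median of 93.1 TPM. The highest were Ctbp1 at 231 ± 4.10 TPM, Sin3a at 100.1 ± 3.26 TPM and the deacetylase Hdac3 at 97.6 ± 4.67 TPM, while Ctbp2, the other CtBP gene, averaged 0.276 ± 0.191 TPM. The 11 SWI/SNF genes, which encode an ATP-driven remodeller, were all above 10 TPM, with a median of 94.4 TPM. Smarca4, one of the alternative ATPases, averaged 218 ± 10.9 TPM and Smarca2, the other, 12.2 ± 0.587 TPM, the lowest of the list. The core subunits Smarcc1 and Smarcd2 averaged 167 ± 2.12 and 146 ± 6.55 TPM.

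Enzymes that modify Ikaros were likewise present. Casein kinase 2 phosphorylates Ikaros and weakens its DNA binding, and protein phosphatase 1 removes the phosphates. All 6 of their genes were above 10 TPM in every library, a level that 8109 of 12712 genes tested reached. The highest were the phosphatase subunit Ppp1ca at 1338 ± 26.3 TPM, the kinase subunit Csnk2b at 267 ± 6.46 TPM and Ppp1cc at 96.2 ± 8.01 TPM. Csnk2a2 was the lowest at 43.3 ± 1.64 TPM. Cereblon is the ubiquitin ligase receptor through which thalidomide-type drugs degrade human IKZF1 and IKZF3, by way of the second finger. The stretch of that finger printed above translates the same in Ikzf1, Ikzf2, Ikzf3 and Ikzf4, so it does not tell drug targets from other members. The cereblon gene Crbn was the lowest of the 5 ligase genes, at 16.3 ± 0.463 TPM, while Ddb1 averaged 719 ± 33.3, Rbx1 105 ± 6.39 and Cul4b 77.7 ± 4.15 TPM.

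Genes reported in other work as Ikaros family targets ranged widely. Of 14 targets described in T cells, 8 reached 1 TPM in all 4 libraries, 4 did so in none, and the median was 4.90 TPM. Of the 12712 genes tested, which leave out genes of low count, 11298 did so in all 4 and 734 in none. Il2, the growth factor that Ikaros is known to silence in anergic T cells, stood at 1339, 1174, 1286 and 1308 TPM in replicates 1 to 4, the highest level of the list. Notch1, whose pathway Ikaros restrains in thymocytes, averaged 74.0 ± 8.79 TPM and Cd8b1, a CD8 chain gene, 46.7 ± 3.55 TPM (SD, n = 4). Il10, an anti-inflammatory cytokine that Ikaros promotes in Th2 cells, was the lowest, with 10 fragments over the 4 libraries.

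Targets described in progenitors and B cells were nearly silent. None of 7 reached 1 TPM in all 4 libraries, 6 did so in none, and the median of the list was 0.0403 TPM. Vpreb1, a part of the surrogate light chain, was the highest, at 2.58, 0.931, 0.445 and 0.833 TPM in replicates 1 to 4. Replicate 1 alone was above 1 TPM. Dntt, which adds bases at antigen receptor joints, averaged 0.433 ± 0.186 TPM and Kit, the stem cell factor receptor, 0.114 ± 0.0442 TPM, and Rag2, a recombinase subunit, had 0 fragments.

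**Figure D5:**
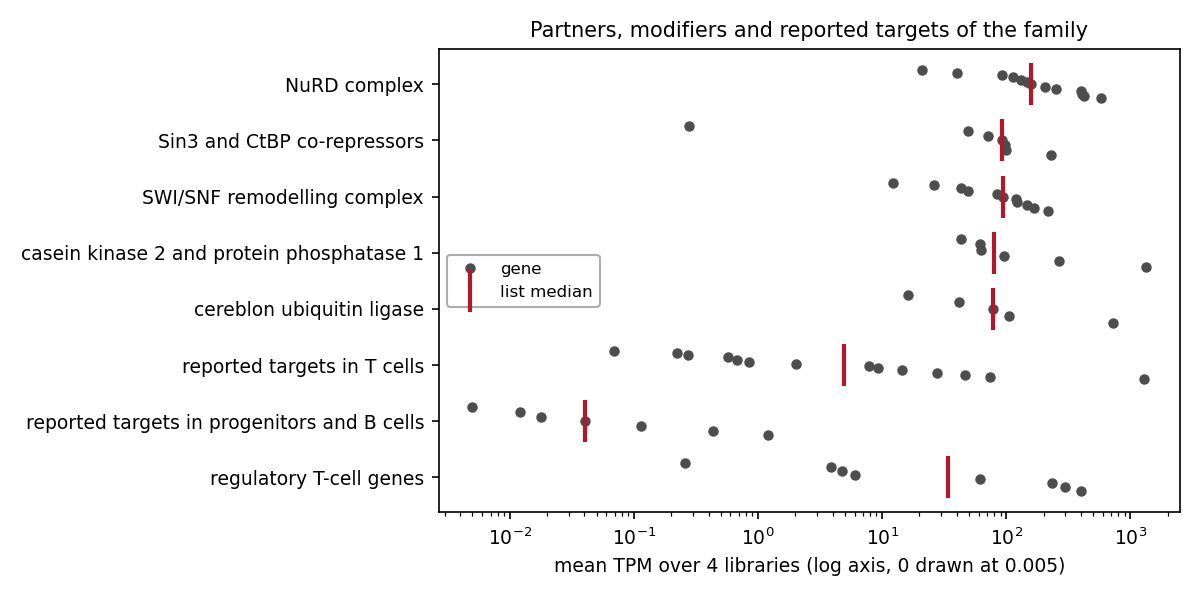
Mean TPM over 4 libraries (log axis, a gene at 0 drawn at the left edge) of each gene in 8 lists of family partners, modifying enzymes, reported targets and regulatory T-cell genes, with list medians in red. The NuRD list lies at the right with a median of 157 TPM, and the targets in progenitors and B cells lie at the left with a median of 0.0403 TPM.

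Variation between libraries was looked up for the partner, enzyme and target genes as well. Of the 60 genes of these 8 lists that could be tested, counting each once, none passed the edgeR variation threshold, against 0.362% of all genes tested, and 3 had an unadjusted p below 0.05, against 5.54%. With 1 dispersion for all genes, 1 passed, against 6.78%. That gene was Notch3, named after its value was seen. All 3 counts lie near or below the background.

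Some members share exon bases with neighbouring genes. The exons of Ikzf5 overlap those of Pstk, a kinase gene of selenocysteine synthesis on the opposite strand, over 4652 bases, 81.3% of the Ikzf5 exon bases. Pstk stood at 6.94, 5.28, 5.03 and 5.74 TPM in replicates 1 to 4, a mean of 5.74 ± 0.848 TPM. The count headers give a strand setting, so fragments of the 2 genes were separated by strand. Ikzf4 overlaps the opposite-strand gene Gm26876 over 37 bases, and that gene was assigned 0, 31, 1 and 19 fragments. Ikzf2 overlaps Gm29114 over 144 bases, and Ikzf5 overlaps Gm44624 over 183 bases, and neither of these had a fragment. Exons of Ikzf1 and Ikzf3 overlap no other gene.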

How the data were processed

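Paired-end RNA sequencing of T cells gave 4 libraries. The authors deposited counts of fragments. Per the file headers, featureCounts 1.4.6-p4 assigned fragments with both ends aligned to the exons of GENCODE vM13 genes, with strand setting 2, and fragments at several places or on several genes were not counted. Per the labels, the build is mm10. They title the assay total RNA-seq but link a library protocol that names poly(A)+ RNA. Exon length, an additional column deposited by the authors and given per the file headers, was used here to compute TPM, and 50376 of 50600 gene identifiers matched a GENCODE vM21 symbol. No per-sample column was left unused. Totals ran from 47558517 to 273136467 fragments. A floor of 3 fragments equals 0.0379 to 0.214 TPM for 1 kb of exon. PCR copies are not independent molecules, so floors and intervals describe only the error of counting.

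All libraries form 1 group, so no contrast was made, and the quasi-likelihood test was not applicable. Variation was tested in R 4.3.3 with edgeR 4.0.16 and limma 3.58.1: filterByExpr with a minimum count of 10 left 12712 genes, TMM factors were 0.998 to 1.002, and residual deviances from an intercept-only negative binomial model with trended dispersion were set against a chi-square distribution, with Benjamini-Hochberg adjustment over all genes at 0.05. The test was also run on counts simulated with the same trended dispersion that it assumes. Such a run cannot decide between trended and common dispersion. Pairs of members were compared within libraries as log2(TPM + 1). Since no label states separate animals, p-values measure only the spread between these libraries, which may be in part technical and, by the Xist and Y-linked levels, spans libraries that differ in sex-linked genes. Ranks by coding-transcript length were added after seeing the data. The other steps used matplotlib 3.10.9, scipy 1.17.1, pandas 2.3.3 and numpy 2.4.6 in Python 3.11.15, with DESeq2 1.42.0 size factors as an alternative. Other alternatives were FPKM scales, another pseudocount, other filters, thinning of replicate 2 and leaving out each library.

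The members and lists were chosen with earlier results of these data known. All members are named, with the 3 highest and the lowest gene of each list, all regulatory T-cell genes, the 2 nearest regulators per member and genes with overlapping exons.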

Additional observations from a re-analysis of the deposited data

Results flagged for a closer look

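Of 58 sets of 4 library values checked for a library far from the others, 1 was marked. Replicate 2 had 273136467 gene-assigned fragments, while the other libraries had 47558517 to 60102919. Chance marks about 1 in 20 such sets. No TPM value of a family member was marked.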

How the results depend on the processing

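Leaving out each library in turn gave mean levels of 395 to 403 TPM for Ikzf1, 1.19 to 1.57 for Ikzf2, 10.4 to 10.6 for Ikzf3, 8.58 to 9.10 for Ikzf4 and 18.0 to 18.4 for Ikzf5. FPKM, TMM-scaled FPKM and DESeq2 size factors put Ikzf1 at 116.7, Ikzf2 at 0.412, Ikzf3 at 3.07, Ikzf4 at 2.58 and Ikzf5 at 5.31, a scale on which values of a library have no fixed sum. Without mitochondrial and predicted Gm genes in the TPM total, Ikzf1 was at 414, Ikzf3 at 10.9 and Ikzf5 at 18.8 TPM. Dividing by the longest coding transcript, chosen after seeing the data and applied to protein-coding genes throughout, also changed the TPM total. It gave 317 TPM for Ikzf1, 17.8 for Ikzf3, 6.27 for Ikzf4 and 16.6 for Ikzf5, with shares of 88.3%, 4.97%, 1.75% and 4.64%. The Ikzf5 minus Ikzf3 difference turned to -0.094. This difference was the only one of 60 alternative pair values to change direction. For variation, common dispersion gave 862 genes and 1 member, Ikzf2, with an edgeR adjusted p of 0.00063. Over the other settings the adjusted p of Ikzf2 ran from 0.0814 to 0.9998 without 1 library, and was 0.908 with no filter, 0.448 with a mean of at least 50 counts, 0.288 with DESeq2 size factors and 0.376 with replicate 2 thinned. Without replicate 2, 25 genes passed, and leaving out any 1 library gave 25 to 40. No paired analysis was possible because the labels give 1 group. Depth limits Ikzf2 most, at 150 fragments in replicate 4. Length per transcript isoform is not resolved by gene counts, so the Ikzf5 and Ikzf3 order cannot be settled from these values.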
